A study of Danio rerio with 6 samples.

Results

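The 35 genes described here cover the burning of fatty acids and its control in zebrafish: enzymes that activate fatty acids, the carnitine shuttle, the mitochondrial and peroxisomal oxidation cycles, the PPAR receptors with their coactivator ppargc1a, and a pair of lipid droplet genes. They were chosen by gene symbol from a deposited table of 25645 genes. All 35 were found, and all 35 were among the 21104 genes abundant enough to test. RNA sequencing was compared between 3 samples homozygous for pikfyve-delta8, edited with CRISPR/Cas9 and described as kinase domain-deficient, and 3 wild-type samples. Pikfyve is a lipid kinase that phosphorylates a phosphoinositide of endosomes and lysosomes. Strain, tissue and age are not given in the labels, and nothing says whether a sample was 1 animal, a pool or a repeat of the same RNA. The p-values below therefore rest on a spread among samples that may be no more than technical.

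Before a fatty acid can be oxidized, an acyl-CoA synthetase joins it to coenzyme A, and the carnitine shuttle then carries long chains into the mitochondrion. There each turn of the β-oxidation spiral (dehydrogenation, hydration, a second dehydrogenation and thiolysis) shortens the chain by an acetyl unit and passes electrons to the respiratory chain. Peroxisomes shorten very long chains by a similar route. In mammals, PPAR nuclear receptors bind fatty acids and switch on many of these genes, and PGC-1α, encoded by ppargc1a, acts as their coactivator. Heart, muscle, liver and intestine are known as tissues that rely on the pathway or contribute to it.

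Total estimated counts lay between 14677252 and 14949605 per sample, so 1 count corresponded to 0.0635 to 0.0728 CPM (read counts relative to library size and a TMM factor). Mutant samples differed more among themselves (Pearson's r of log2 CPM over all genes, which are not replicates, 0.975 to 0.980) than wild-type samples did (0.991 to 0.992). The pikfyve transcript had 61.2, 63.2 and 73.6 CPM in pikfyve-delta8 samples, against 56.6, 53.8 and 52.1 CPM in wild-type samples. Its log2 fold change was 0.29 ± 0.09 (SE), with an edgeR adjusted p of 0.0209 that became 0.27 with library size scaling alone. Counts per gene say nothing of the edited bases, so the labels cannot be checked this way.

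Among the 35 genes, 6 were higher and 13 lower in pikfyve-delta8 samples than in wild type, and 16 did not pass the test (edgeR quasi-likelihood test, adjusted p under 0.05 by Benjamini-Hochberg over all genes tested). That is 17.1% higher and 37.1% lower, beside 25.1% higher and 23.0% lower among all genes tested. The changes were unequal in size. The 13 lower genes fell by between 13.1% and 36.2%, while 3 of the 6 higher genes, acsl4b, plin2 and pnpla2, rose more than 2-fold. The median log2 fold change of the 35 was -0.05, beside 0.0039 for all genes tested. All mutant samples lay above all wild-type samples for 8 of the genes (30.1% of all genes tested) and below them for 13 (28.7% of all genes tested). Scaled by library size alone, all genes shifted to a median of -0.14 and split into 3824 higher and 6561 lower, in place of 5295 higher and 4845 lower. No gene of the 35 that passed the test changed direction in any of 17 alternative analyses, and 11 of the 19 stayed past the threshold in all of them. The count of lower genes was 7 without wild-type sample 1, 8 without wild-type sample 3 and 17 without mutant sample 1. Over all genes tested, lower calls in those runs were 3624, 3629 and 4733, in place of 4845. In bulk RNA, fewer cells of a type and less RNA per cell cannot be told apart.

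**Figure D1:**
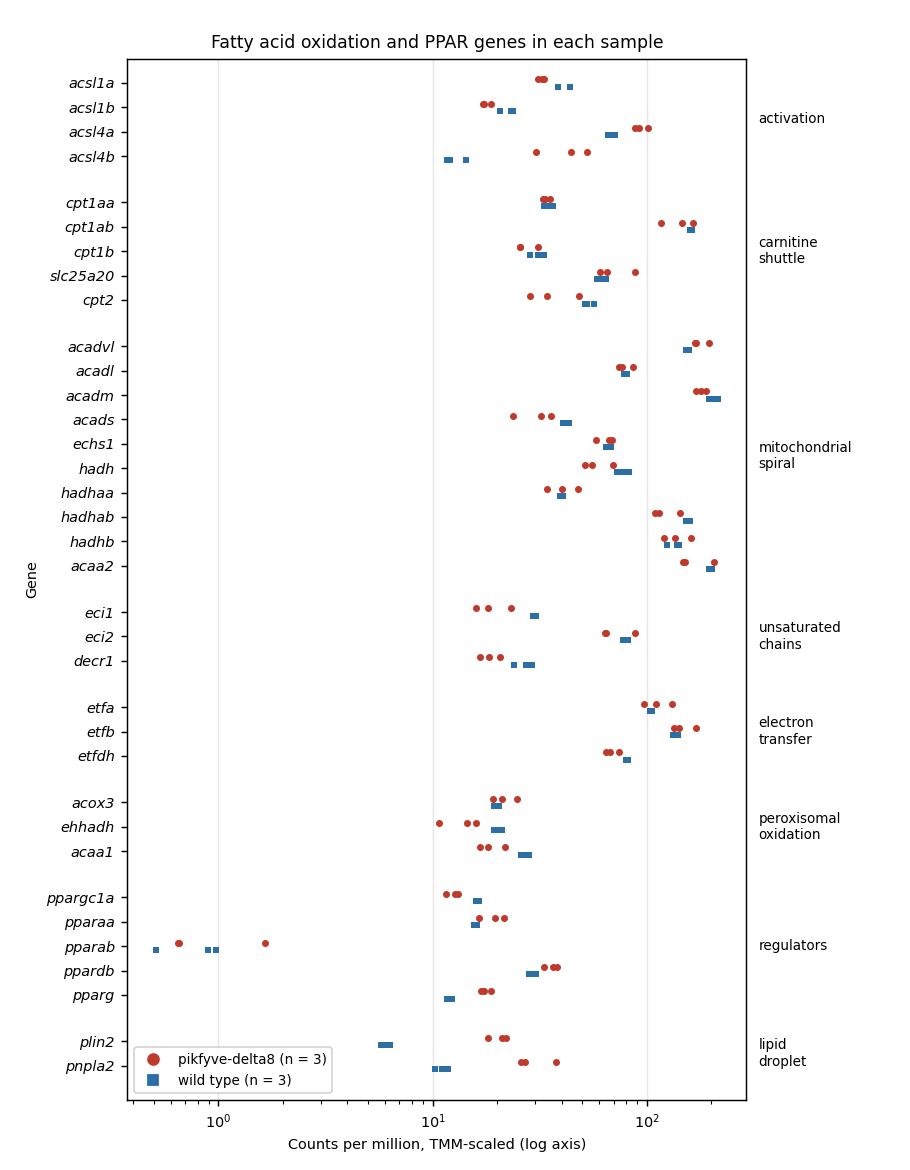
Level of each of the 35 genes in each sample, in CPM on a log axis, with pikfyve-delta8 samples as circles and wild-type samples as squares (n = 3 each). The circles of acsl4b, plin2 and pnpla2 lie far to the right of the squares, and those of eci1 and acaa1 lie to the left.

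**Figure D2:**
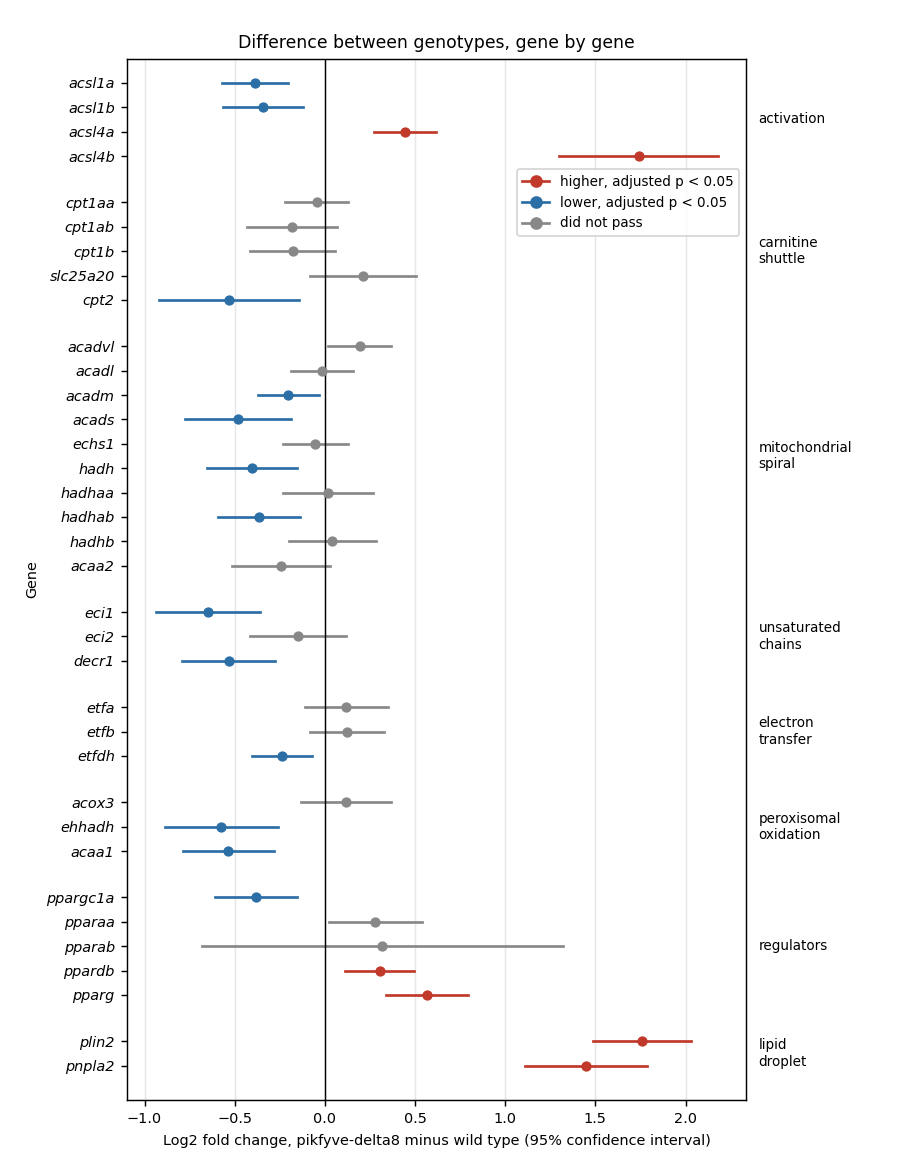
Log2 fold change of each gene, pikfyve-delta8 minus wild type, with its 95% confidence interval and coloured by the edgeR call. The 24 oxidation enzymes from cpt1aa to acaa1 hold 10 genes called lower and 0 called higher.

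Activation genes split by family. Synthetases of the acsl1 pair, which in mammals serve oxidation in muscle and fat and are PPAR targets, fell. Those of the acsl4 pair, which in mammals prefer arachidonic acid and other polyunsaturated chains, rose. The acsl4b transcript had 30.4, 44.1 and 52.5 CPM in pikfyve-delta8 samples, against 12.1, 14.3 and 11.7 CPM in wild-type samples. Every mutant sample was more than 2-fold above the highest wild-type sample, and the log2 fold change was 1.74 ± 0.19 (SE, n = 3 each, edgeR adjusted p = 0.00017). Its paralog acsl4a had 101.3, 87.9 and 92.5 CPM in mutants, against 70.3, 65.6 and 71.0 CPM in wild type. The groups did not overlap, but the log2 fold change was smaller, 0.44 ± 0.08 (edgeR adjusted p = 0.0012). In contrast, acsl1a had 30.9, 33.1 and 32.5 CPM in mutants, against 44.0, 43.6 and 38.6 CPM in wild type, a log2 fold change of -0.39 ± 0.08 (edgeR adjusted p = 0.0035). Its count was fractional in 4 samples, so some of its reads were shared with another sequence. The acsl1b transcript had 17.2, 17.5 and 18.7 CPM in mutants, against 23.8, 23.2 and 20.8 CPM in wild type. Again no sample crossed over, and the log2 fold change was -0.34 ± 0.10 (edgeR adjusted p = 0.0164). This call was lost when wild-type sample 1 or 2 was left out (adjusted p = 0.0731 and 0.0644).

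In the carnitine shuttle, cpt2 was the gene that passed the test. It encodes carnitine palmitoyltransferase 2, which hands the acyl group back to coenzyme A inside the mitochondrion. Its level was 48.2, 28.5 and 34.2 CPM in pikfyve-delta8 samples, against 52.5, 56.6 and 51.3 CPM in wild-type samples. Mutant sample 1 lay close below the wild-type range and the other mutants well below it. The log2 fold change was -0.53 ± 0.17 (edgeR adjusted p = 0.0300), and the call was lost without mutant sample 3 (0.128) and without wild-type sample 1, 2 or 3 (0.0717, 0.0934 and 0.0620). The carnitine palmitoyltransferase 1 genes, whose product is the rate-limiting gate of mitochondrial entry, did not pass the test. Their log2 fold changes were -0.04 for cpt1aa, -0.18 for cpt1ab and -0.18 for cpt1b. The cpt1ab transcript, the most abundant of them, had 164, 117 and 146 CPM in mutants, against 160, 162 and 162 CPM in wild type, so mutant sample 1 was above all wild-type samples while the others were below. Without that sample its adjusted p was 0.0324, and that of cpt1b was 0.0409. With library size scaling alone cpt1b also passed as lower (adjusted p = 0.0258), as it did in the 3 analyses of FPKM (0.0308 to 0.0403). The translocase gene slc25a20 had 88.2, 60.6 and 65.2 CPM in mutants, against 62.0, 64.7 and 58.3 CPM in wild type, with a log2 fold change of 0.21 ± 0.13 (edgeR adjusted p = 0.211). The 2 groups overlapped.

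Within the mitochondrial spiral, 4 of 10 genes fell (40%, beside 23.0% lower among all genes tested) and 6 did not pass the test. The 4 were acadm and acads, the medium-chain and short-chain acyl-CoA dehydrogenases, hadh, the short-chain 3-hydroxyacyl-CoA dehydrogenase, and hadhab, a paralog of the α subunit of the trifunctional protein. The acads transcript had 35.5, 32.0 and 23.8 CPM in pikfyve-delta8 samples, against 40.8, 43.1 and 43.5 CPM in wild-type samples. The groups did not overlap, mutant sample 3 was lowest, and the log2 fold change was -0.48 ± 0.13 (edgeR adjusted p = 0.0129, and 0.0505 without wild-type sample 3). The hadh transcript had 69.5, 55.3 and 51.4 CPM in mutants, against 83.05, 77.7 and 72.8 CPM in wild type. Its highest mutant sample came near its lowest wild-type sample, and the log2 fold change was -0.41 ± 0.11 (edgeR adjusted p = 0.0136, and 0.0631 without wild-type sample 1). The hadhab transcript had 143, 109 and 114 CPM in mutants, against 160, 152 and 159 CPM in wild type. The log2 fold change was -0.37 ± 0.10 with no overlap (edgeR adjusted p = 0.0143, and 0.0558 or 0.0542 without wild-type sample 1 or 3).

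The acadm transcript had 190, 180 and 170 CPM in pikfyve-delta8 samples, against 196, 215 and 209 CPM in wild-type samples. The groups lay side by side without overlap, and the log2 fold change of -0.20 ± 0.07 was the smallest fall that passed (edgeR adjusted p = 0.0475). That call was lost with no filter on low counts (0.0534), without mutant sample 2 (0.0709) and without wild-type sample 1, 2 or 3 (0.0679, 0.172 and 0.138). The 4 acyl-CoA dehydrogenases of the straight-chain spiral act on chains of falling length. In order of their preferred chain in mammals, from very long to short, the log2 fold changes were 0.19 for acadvl, -0.02 for acadl, -0.20 for acadm and -0.48 for acads. This order was noticed in the values, and the differences between the 4 genes were not tested. Acyl-CoA dehydrogenase genes from the lists of related genes were not placed in it. Their log2 fold changes were -0.30 for acad8, -0.25 for acad9, -0.65 for acad11, 0.15 for acadsb and 0.18 for ivd. For acadvl, all mutant samples (195, 169 and 169 CPM) lay above all wild-type samples (158, 156 and 153 CPM), yet the edgeR adjusted p was 0.0641, becoming 0.0435 and 0.0269 without mutant sample 2 or 3. The enoyl-CoA hydratase echs1 (log2 fold change -0.05), hadhaa (0.02), hadhb (0.04) and the thiolase acaa2 (-0.24, with fractional counts in 6 samples) did not pass. The signs of acadl, echs1, hadhaa and hadhb turned with the scaling or with the samples used, so no direction is given for them. With library size scaling alone, echs1 and acaa2 passed as lower (adjusted p = 0.0405 and 0.0232).

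The largest fall of the 24 oxidation enzymes was in the auxiliary enzymes for unsaturated chains. The isomerase eci1, which moves double bonds into the position the spiral can use, had 23.3, 18.1 and 16.0 CPM in pikfyve-delta8 samples, against 29.4, 30.4 and 30.2 CPM in wild-type samples. Wild-type samples were nearly equal and all mutants were below them, with a log2 fold change of -0.65 ± 0.13 (edgeR adjusted p = 0.0026). The 2,4-dienoyl-CoA reductase decr1 had 20.6, 18.3 and 16.6 CPM in mutants, against 29.2, 27.2 and 24.0 CPM in wild type. The groups did not overlap, and the log2 fold change was -0.53 ± 0.11 (edgeR adjusted p = 0.0039). Its neighbour in the route, eci2, had overlapping groups and a log2 fold change of -0.15 ± 0.12 (edgeR adjusted p = 0.33). Without mutant sample 1 its adjusted p was 0.0054.

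Electron transfer flavoprotein collects the electrons of the acyl-CoA dehydrogenases, and its oxidoreductase, encoded by etfdh, passes them to ubiquinone. The etfdh transcript had 74.1, 67.2 and 64.9 CPM in pikfyve-delta8 samples, against 81.6, 81.4 and 80.1 CPM in wild-type samples. All mutant samples were lower, with a log2 fold change of -0.24 ± 0.07 (edgeR adjusted p = 0.0230, and 0.0786, 0.0778 or 0.0676 without wild-type sample 1, 2 or 3). The subunit genes etfa and etfb had log2 fold changes of 0.12 and 0.12, did not pass, and turned negative when scaled by library size alone.

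Of the peroxisomal genes, ehhadh, the bifunctional enzyme, and acaa1, the peroxisomal thiolase, fell, and acox3, an acyl-CoA oxidase, did not pass (log2 fold change 0.12 ± 0.11, edgeR adjusted p = 0.421, negative when scaled by library size alone). The ehhadh transcript had 15.9, 14.5 and 10.7 CPM in pikfyve-delta8 samples, against 20.7, 19.4 and 21.0 CPM in wild-type samples. No sample crossed over, and the log2 fold change was -0.57 ± 0.14 (edgeR adjusted p = 0.0078). The acaa1 transcript had 21.7, 18.1 and 16.6 CPM in mutants, against 27.7, 28.2 and 25.8 CPM in wild type. Here too the groups were apart, with a log2 fold change of -0.54 ± 0.11 (edgeR adjusted p = 0.0035). In rodents both are well-known targets of PPARα agonists.

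The receptors and their coactivator went different ways. Transcripts of pparg, the receptor that in mammals drives fat cell formation and lipid storage, rose: 18.7, 17.3 and 16.9 CPM in pikfyve-delta8 samples, against 11.7, 12.4 and 11.7 CPM in wild-type samples. Each group was tight and they were well apart, with a log2 fold change of 0.57 ± 0.10 (edgeR adjusted p = 0.0014). Transcripts of ppardb, a paralog of PPARδ, which in mammals promotes oxidation in muscle, were 36.6, 33.0 and 38.2 CPM in mutants, against 30.2, 28.2 and 28.9 CPM in wild type. The groups did not overlap and the log2 fold change was 0.30 ± 0.09 (edgeR adjusted p = 0.0151). It was 0.16 with an adjusted p of 0.204 when scaled by library size alone, and the adjusted p was 0.0730 or 0.0643 without wild-type sample 2 or 3. The coactivator ppargc1a had 12.7, 11.5 and 13.1 CPM in mutants, against 16.5, 16.1 and 16.0 CPM in wild type. All mutants were lower, and the log2 fold change was -0.38 ± 0.10 (edgeR adjusted p = 0.0117). PPARα paralogs did not pass: pparaa had 16.5, 21.5 and 19.7 CPM in mutants, against 15.7, 15.6 and 16.2 CPM in wild type, with a log2 fold change of 0.28 ± 0.12 (edgeR adjusted p = 0.0707). Its mutant samples were all above its wild-type samples, by little in mutant sample 1, and without that sample the adjusted p was 0.0139. For pparab only 9, 9 and 24 counts in mutants and 8, 15 and 14 counts in wild type were available, and the 95% interval of its log2 fold change ran from -0.68 to 1.32, so a 2-fold rise lay inside it and a 2-fold fall outside.

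Both lipid droplet genes rose more than 2-fold. The plin2 transcript, which encodes a protein that coats lipid droplets and is a PPAR target in mammals, had 18.1, 21.2 and 21.9 CPM in pikfyve-delta8 samples, against 5.72, 6.35 and 6.02 CPM in wild-type samples. All mutant samples were far above all wild-type samples, with a log2 fold change of 1.76 ± 0.12 (edgeR adjusted p = 5.9e-06). The pnpla2 transcript, which encodes adipose triglyceride lipase, the first enzyme of triglyceride breakdown, had 25.8, 27.1 and 37.5 CPM in mutants, against 10.2, 11.9 and 11.1 CPM in wild type. Mutant sample 3 was highest and the groups did not overlap, with a log2 fold change of 1.45 ± 0.15 (edgeR adjusted p = 6.7e-05). Of 4 adipocyte markers, cidec rose (10.4 ± 1.3 CPM in mutants and 3.91 ± 0.48 CPM in wild type, SD, n = 3 each), adipoqb did not pass, and plin1 and adipoqa were too low to test, plin1 at 0 to 2 counts per sample. The summed level of the 4 was 9.97 to 13.5 CPM in mutants and 6.21 to 6.35 CPM in wild type, most of it from cidec. The adipoqb transcript averaged 1.23 CPM in mutants and 1.86 CPM in wild type, with overlapping groups, so the markers did not rise as a set. The part of adipocytes in the rise of plin2 and pnpla2 was not tested.

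Across all steps, the 24 enzymes from the carnitine shuttle to the peroxisome held 10 lower genes (41.7%, beside 23.0% of all genes tested) and 0 higher genes in edgeR (25.1% of all genes tested). At an unadjusted p under 0.05 the counts were 10 lower and 1 higher (acadvl). The shares above are for adjusted p, and none over all genes is given at this looser threshold. Both DESeq2 and limma-voom gave 10 lower and 0 higher. Over all genes, DESeq2 called 4219 lower and 4611 higher, and limma-voom 5071 lower and 5258 higher. Wild-type samples had nearly equal levels across the block. Mutant samples did not. In each sample, the median over the 24 enzymes of the log2 ratio to the wild-type mean was 0.02, -0.27 and -0.28 in pikfyve-delta8 samples 1, 2 and 3, against -0.00, 0.02 and 0.00 in wild-type samples. Mutant sample 1 thus sat at the wild-type level by median, though single genes in it ranged above and below. It was the highest of the mutants for 24 of 24 enzymes, both with TMM and with library size scaling, and for 23 of 24 by TPM, the deposited length-scaled abundance. Over all genes tested, it was highest for 32.3% (TMM), 28.4% (library size) and 24.4% (TPM). This pattern was noticed in the values.

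**Figure D3:**
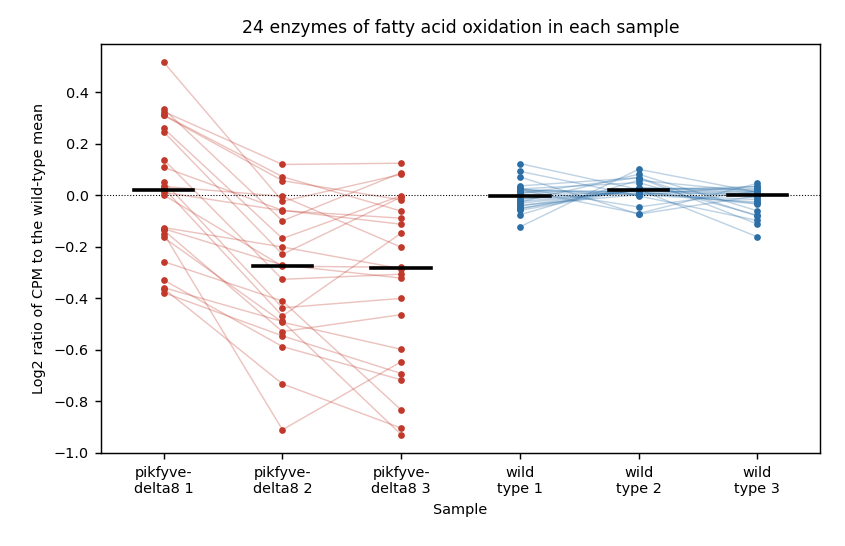
Log2 ratio of each of the 24 oxidation enzymes to its wild-type mean in every sample, from TMM-scaled CPM. Thin lines join the same gene within a genotype, black bars are the sample medians, and pikfyve-delta8 sample 1 lies above samples 2 and 3 for all 24 genes while wild-type samples lie near 0.

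The summed TPM of the 24 enzymes was 1450, 1166 and 1282 in pikfyve-delta8 samples, against 1595, 1569 and 1581 in wild-type samples, so all mutants were lower on that scale. Their summed CPM was 2139, 1715 and 1744 in mutants, against 2019, 2058 and 2010 in wild type, and on that scale mutant sample 1 was above all wild-type samples. Without mutant sample 1, 14 of the 24 enzymes were lower and 0 higher, with 4733 lower and 5176 higher over all genes. Leaving out mutant sample 2 or 3 gave 9 lower and 1 higher each time. Over all genes, those runs had 4541 and 5498 lower and 5091 and 5484 higher. Leaving out wild-type sample 1, 2 or 3 gave 5, 7 and 5 lower and 0 higher, while the count over all genes also fell, to between 3624 and 3698 lower. Scaling by library size alone gave 13 lower and 0 higher, while lower calls over all 21104 genes grew to 6561 and higher calls shrank to 3824. In the tricarboxylic acid cycle, which burns the acetyl units, mutant sample 1 was the highest mutant for 15 of 16 genes. For the other 11 of the 35 genes it was highest in 2. Among lists described below, with TMM scaling, it was highest for 11 of 15 other carnitine and mitochondrial genes. It was also highest for 10 of 14 other PPAR target genes and 6 of 9 enterocyte markers. For receptor partners and coregulators it was highest in 3 of 23, and for neuron markers in 0 of 9. The pattern was thus not confined to the oxidation enzymes.

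Markers of other cell types were counted in the same way, beside 25.1% higher and 23.0% lower among all genes tested. Enterocytes of the intestine express many fatty acid genes, and the summed level of 9 enterocyte markers was 2663, 2019 and 2034 CPM in pikfyve-delta8 samples, against 2667, 2875 and 2702 CPM in wild-type samples. In summed CPM, mutant sample 1 was just below wild type and the other mutants were lower. In summed TPM, which carries no TMM factor, all mutants were lower. Those sums were 4339, 3296 and 3627 in pikfyve-delta8 samples, against 5667, 5900 and 5725 in wild-type samples. The ratio of mutant to wild-type sums was lower in TPM than in CPM for every list, enterocyte markers included (0.651 and 0.815). Of the 9 enterocyte markers 3 were higher (33.3%, among them cdx1b and apoa4a), 1 lower (11.1%) and 5 did not pass. The lower marker was fabp2, the intestinal fatty acid binding protein, with 544 ± 93.8 CPM in mutants and 924 ± 54.6 CPM in wild type (SD, n = 3 each). In TPM fabp2 averaged 1713 in mutants and 3275 in wild type, the largest single part of the enterocyte sums. Without fabp2, the summed CPM of mutant sample 1 would lie above all wild-type samples, so the sums do not describe the markers as a set. All 9 neuron markers were lower, with sums of 944 to 1215 CPM in mutants and 1798 to 1862 CPM in wild type. All 5 genes listed for neutrophils were higher, with sums of 2560 to 2799 CPM in mutants and 1665 to 1811 CPM in wild type. Nearly all of that came from cpa5, so these sums are not read as a neutrophil level. Without cpa5 the sums were 219 to 348 CPM in mutants and 34.3 to 38.6 CPM in wild type. Muscle markers stand for another large user of fatty acids. Of these, 2 of 6 slow and 3 of 9 fast muscle genes were higher (33.3% each) and the others did not pass. Heart markers had 2 of 7 higher (28.6%) and 5 that did not pass, and liver markers 4 of 11 higher (36.4%) and 3 lower (27.3%). No marker in any list was at 0 in all samples. The part of these cell types in the differences above was not tested.

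Compared per transcript length, the wild-type order of the 24 enzymes was led by acadm. It had 146 ± 4.2 TPM in pikfyve-delta8 samples and 189 ± 6.1 TPM in wild-type samples (SD, n = 3 each), followed in wild type by etfb (158 ± 15.2 in mutants, 163 ± 5.0 in wild type) and acaa2 (114 ± 20.4 in mutants, 152 ± 2.0 in wild type). In mutants etfb stood above acadm, within their spread. Genes of the peroxisomal route were far lower in TPM, from 6.45 ± 0.65 in mutants and 6.70 ± 0.17 in wild type for acox3 to 15.1 ± 1.6 in mutants and 24.6 ± 0.93 in wild type for acaa1. Among the receptors pparg was at 15.6 ± 0.68 TPM in mutants and 11.8 ± 0.15 TPM in wild type, ppardb at 12.01 ± 1.4 TPM in mutants and 10.9 ± 0.82 TPM in wild type, and pparaa at 6.03 ± 0.87 TPM in mutants and 5.57 ± 0.20 TPM in wild type. The lowest of the 35 was pparab, with 0.95 ± 0.56 TPM in mutants and 0.81 ± 0.34 TPM in wild type.

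Zebrafish carry several of these genes as paralogs, and 7 pairs were compared as ratios within each sample. The ratio of hadhaa to hadhab was 0.334, 0.315 and 0.351 in pikfyve-delta8 samples, against 0.254, 0.267 and 0.248 in wild-type samples. The mutants were all higher (difference of mean log2 ratios 0.38, exact two-sided permutation p = 0.1, adjusted 0.35 over 7 pairs). The ratio of acsl4a to acsl4b was 3.34, 1.99 and 1.76 in mutants, against 5.83, 4.60 and 6.06 in wild type. All mutants were lower (difference -1.27, exact permutation p = 0.1, adjusted 0.35). With 3 samples against 3, 0.1 is the smallest p this test can give. The other 5 pairs overlapped between genotypes, with exact permutation p from 0.3 to 1. Their differences were 0.15 for cpt1aa to cpt1ab, 0.14 for cpt1aa to cpt1b, -0.01 for cpt1ab to cpt1b, -0.04 for acsl1a to acsl1b and 0.05 for pparaa to pparab. By the RefSeq gene table, hadhaa and hadhb, the subunits of the trifunctional protein, lie side by side with 0 protein-coding genes between them, and no other pair of the 35 does.

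**Figure D4:**
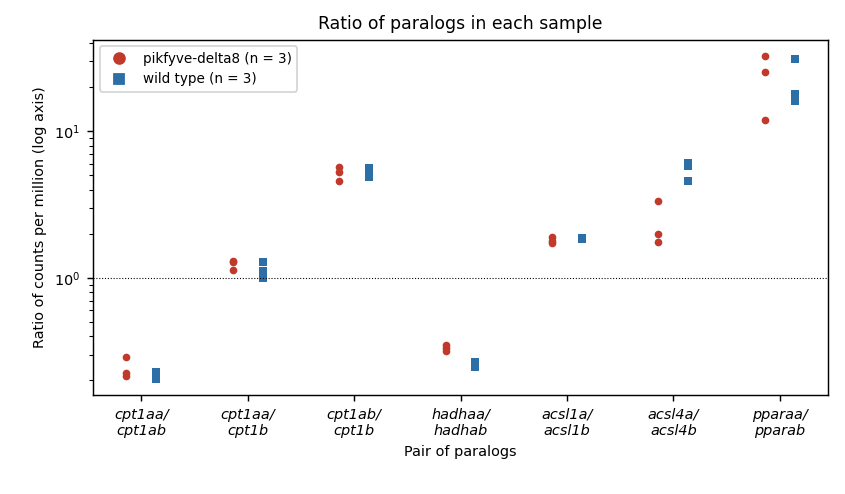
Ratio of CPM between 7 pairs of paralogs in each sample, on a log axis, with pikfyve-delta8 samples as circles left of wild-type samples as squares (n = 3 each). The genotypes are apart for hadhaa to hadhab and for acsl4a to acsl4b and overlap for the other pairs.

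Other genes of the pathway were read from lists of related genes, each counted against the same background of 25.1% higher and 23.0% lower. Counts scaled by library size alone have another background, 3824 higher and 6561 lower of 21104 genes. Of 16 other uptake and activation genes, 2 were higher (12.5%) and 7 lower (43.8%). The fatty acid transporter gene slc27a1b rose (30.8 ± 2.0 CPM in pikfyve-delta8 and 11.99 ± 0.85 CPM in wild type, mean ± SD, n = 3 each here and for the list genes that follow), as did dbi, the acyl-CoA binding protein (284 ± 24.8 CPM in mutants and 207 ± 5.8 CPM in wild type). The synthetase genes acsl6 (35.6 ± 2.8 CPM in mutants and 68.4 ± 2.3 CPM in wild type) and acsf2 (57.4 ± 11.3 CPM in mutants and 102 ± 2.8 CPM in wild type) fell. Of 15 other carnitine and mitochondrial genes, 1 was higher (6.67%) and 4 lower (26.7%), or 7 lower when scaled by library size alone. Here acaca, whose enzyme makes the malonyl-CoA that inhibits carnitine palmitoyltransferase 1, rose (72.2 ± 9.4 CPM in mutants and 50.1 ± 2.4 CPM in wild type), with fractional counts in all 6 samples. Its paralog acacb did not pass (log2 fold change 0.01 ± 0.09, SE, edgeR adjusted p = 0.914). Nor did the malonyl-CoA decarboxylase gene mlycd (0.43 ± 0.17, SE, edgeR adjusted p = 0.0619), though its mutant samples all lay above its wild-type samples. The dehydrogenase acad11 (19.0 ± 2.5 CPM in mutants and 29.8 ± 0.65 CPM in wild type) and the thioesterase acot13 (3.46 ± 0.22 CPM in mutants and 6.58 ± 0.51 CPM in wild type) fell.

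Of 15 other peroxisomal enzymes and transporters, 1 was higher (6.67%) and 3 lower (20%), both shares below those of all genes tested (25.1% and 23.0%). When scaled by library size alone, 5 were lower. Catalase, encoded by cat, which removes the hydrogen peroxide of peroxisomal oxidation, fell (161 ± 27.5 CPM in mutants and 269.9 ± 14.91 CPM in wild type), as did hacl1 of α-oxidation (12.5 ± 1.8 CPM in mutants and 17.9 ± 0.84 CPM in wild type). The transporter gene abcd4, which in mammals acts at the lysosome in vitamin B12 export, rose (14.2 ± 0.79 CPM in mutants and 9.43 ± 1.3 CPM in wild type). Of 16 peroxins, which build peroxisomes, pex5 was higher (6.25%) and pex11a lower (6.25%), and DESeq2 called neither. Scaled by library size alone, 0 peroxins were higher and 6 lower, beside 3824 higher and 6561 lower over all genes.

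Of 23 partners and coregulators of the receptors, 5 were higher (21.7%) and 4 lower (17.4%), shares near or below those of all genes tested. The phosphatidate phosphatase lpin1, which in mammals also coactivates PPARα, rose (356 ± 68.7 CPM in pikfyve-delta8 and 112.2 ± 5.8 CPM in wild type, fractional counts in all 6 samples), as did pprc1, a relative of ppargc1a (62.1 ± 7.4 CPM in mutants and 31.4 ± 2.7 CPM in wild type). The estrogen-related receptors esrrga (25.8 ± 2.1 CPM in mutants and 51.5 ± 2.9 CPM in wild type) and esrra (20.7 ± 1.9 CPM in mutants and 32.0 ± 0.25 CPM in wild type) fell. In mammals they bind many oxidation genes together with PGC-1α. Their log2 fold changes were -0.997 ± 0.087 and -0.63 ± 0.09, larger in size than that of ppargc1a itself, a difference between genes that was not tested.

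Genes listed as other PPAR targets, from work in mammals, or as relatives of such targets were mostly higher, with 11 of 14 higher (78.6%) and 1 lower, and a median log2 fold change of 0.77. The uncoupling protein genes ucp3 (285 ± 23.3 CPM in pikfyve-delta8 and 90.1 ± 3.2 CPM in wild type) and ucp1 (668 ± 43.7 CPM in mutants and 304 ± 12.1 CPM in wild type) rose. Of 16 lipid droplet and lipolysis genes, 7 were higher (43.8%) and 3 lower (18.8%). Among all genes tested, 25.1% were higher and 23.0% lower. The droplet coat gene plin3 (55.7 ± 3.8 CPM in mutants and 15.3 ± 0.42 CPM in wild type) and lipoprotein lipase, lpl (320 ± 37.6 CPM in mutants and 114 ± 4.4 CPM in wild type), rose, while the triglyceride synthesis genes dgat2 (19.2 ± 3.0 CPM in mutants and 30.0 ± 2.5 CPM in wild type) and dgat1a (24.6 ± 3.1 CPM in mutants and 35.2 ± 1.1 CPM in wild type) fell.

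Of 8 ketone body genes, 3 were higher (37.5%, beside 25.1% of all genes tested) and 5 did not pass. Among the higher were aacs (53.1 ± 4.5 CPM in mutants and 33.7 ± 2.2 CPM in wild type) and acat2 (37.8 ± 6.7 CPM in mutants and 23.1 ± 0.30 CPM in wild type). Of 16 tricarboxylic acid cycle genes, 3 were higher (18.8%, below the 25.1% of all genes tested) and 13 did not pass. Among the higher were dlst (256 ± 16.7 CPM in mutants and 206 ± 4.8 CPM in wild type) and ogdhb (52.0 ± 0.66 CPM in mutants and 43.4 ± 3.4 CPM in wild type), both of the 2-oxoglutarate dehydrogenase complex. The counts became 0 higher and 4 lower when scaled by library size alone, beside 3824 higher and 6561 lower over all genes. Of 13 genes of mitochondrial biogenesis and the outer membrane, 4 were higher (30.8%) and 4 lower (30.8%), beside 25.1% higher and 23.0% lower among all genes tested. The import receptor tomm20a (49.6 ± 3.2 CPM in mutants and 31.1 ± 3.1 CPM in wild type) and the porin vdac2 (1392 ± 91.0 CPM in mutants and 1057 ± 23.0 CPM in wild type) rose, and vdac1 (119 ± 5.4 CPM in mutants and 185 ± 7.5 CPM in wild type) and the mitochondrial transcription factor tfam (19.8 ± 2.4 CPM in mutants and 26.2 ± 0.60 CPM in wild type) fell.

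**Figure D5:**
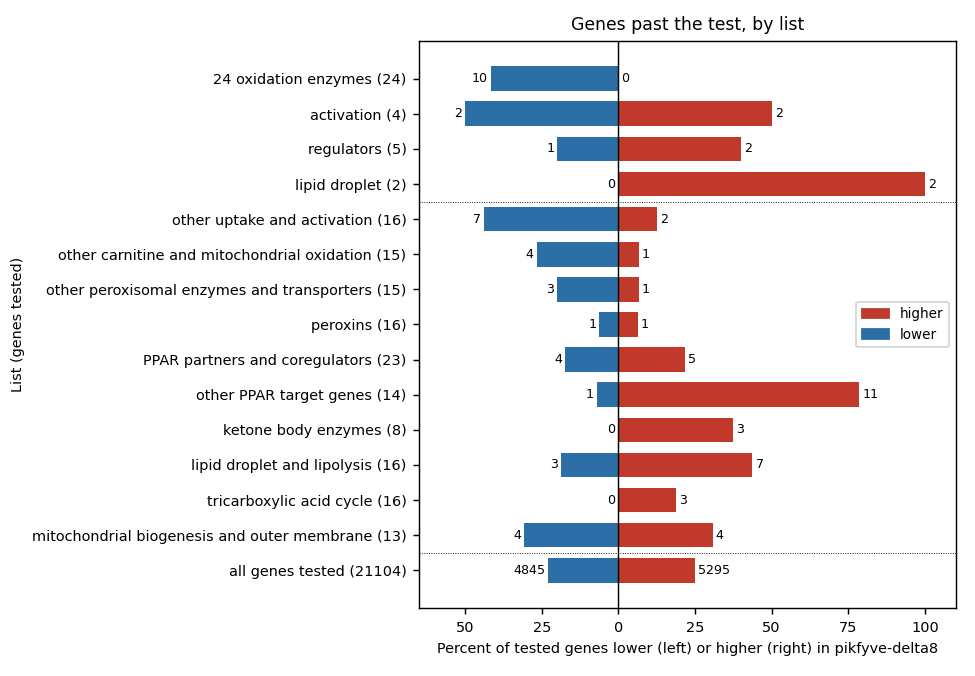
Percent of the tested genes of each list that were lower (bars to the left) or higher (bars to the right) in pikfyve-delta8 than in wild type at an edgeR adjusted p under 0.05, with the counts at the bar ends. The 24 oxidation enzymes show bars to the left alone, the other PPAR target genes mostly to the right, and all genes tested are the bottom row.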

How the data were processed

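The deposited table of 25645 genes holds, per the file headers, read counts, FPKM and TPM for each of 6 samples. The deposited counts are estimated counts: within a tolerance of 0.005, 10.7% to 11.6% of those in a sample are fractional. The deposited FPKM and TPM values are scaled for depth and transcript length. GRCz11 was the genome build, and RSEM 1.3.1, Bowtie2 and DESeq2 1.4.5 were used, per the submitters' processing notes, which give no settings. RNA was purified with a Qiagen kit and mRNA was selected, per the labels' protocols. No source used here gives strandedness, so antisense partners cannot be told apart.

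After rounding, estimated counts went into edgeR 4.0.16 under R 4.3.3 (filterByExpr, TMM factors, robust quasi-likelihood test on genotype, two-sided, Benjamini-Hochberg at 0.05 over 21104 genes). SE is the log2 fold change divided by the square root of F. TPM was used for levels between genes and was not tested. FPKM served an alternative, limma-trend (limma 3.58.1) on log2(FPKM + 1) or log2(FPKM + 0.1) after dropping genes that did not reach an FPKM of 1 in 3 samples. Such fold changes understate low genes. Other alternatives were DESeq2 1.42.0, limma-voom, other scalings and filters, the replicate number as a block and each sample left out. On simulated counts for this comparison (21123 genes), 98% of 50 genes raised 2-fold and all of 50 lowered 2-fold were recovered. Of 20923 unchanged genes, 16 were called. The simulation gave all genes in both groups the same dispersion, without the wider spread of the mutants, and changed only genes with a mean of at least 50 counts. Far fewer genes were changed than were called in the data. Changes smaller than 2-fold were not simulated, so recovery of the lower genes cannot be read from it.

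All pairs of samples differed beyond counting noise (mean chi-square per gene at least 2.32). Members and gene lists were chosen with earlier results of these data known, and the lists were given no test of their own. Members that passed the test are given in every sample, and up to 2 genes in each direction with the smallest p from each list are named, except where a gene is not reported here. Gene symbols come from the table, and 35 of 35 matched the RefSeq gene table (GRCz12tu), used only for which genes neighbour each other. Figures were drawn with matplotlib.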

Additional observations from a re-analysis of the deposited data

How the results depend on the processing

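The count of higher genes among the 35 stayed within 1.5 times its value of 6 in all 17 alternatives, and no called gene changed sign. The count of lower genes, 13, ranged from 7 to 17 when a sample was left out, lowest without wild-type sample 1 and highest without mutant sample 1. Lower calls over all genes were 3624 and 4733 in those runs, in place of 4845. The median log2 fold change, -0.05, became -0.20 with library size alone, -0.25 with limma-trend on log2(FPKM + 1) and on log2(FPKM + 0.1), and -0.20 on log2(FPKM + 1) without a filter. These scalings also moved the median of all genes, to -0.14, -0.12, -0.14 and -0.06, so the 35 genes lay 0.06, 0.13, 0.11 and 0.14 below it. Of the 16 genes without a call, 7 gained one in at least 1 alternative and 8 changed sign in at least 1. In the order upper-quartile scaling, library size alone, log2(FPKM + 1), log2(FPKM + 0.1) and log2(FPKM + 1) without a filter, hadhaa was -0.0468, -0.13, -0.13, -0.14 and -0.13, and hadhb was -0.0228, -0.10, -0.11, -0.11 and -0.11. From library size alone onward, etfa was -0.0237, -0.0356, -0.0361 and -0.0356, etfb was -0.0218, -0.0272, -0.0274 and -0.0272, and acox3 was -0.0298, -0.0304, -0.0360 and -0.0304. With a sample left out, acadl ranged from -0.0859 to 0.0134, echs1 from -0.10 to 0.0012, hadhaa from -0.11 to 0.12, hadhb from -0.0827 to 0.13, etfa from -0.0033 to 0.22 and pparab from -0.29 to 0.55. The filtered FPKM settings dropped pparab. The cause of these shifts was not tested. Same-numbered samples did not deviate together (correlations -0.07, 0.05 and -0.05), so the numbers do not pair them. With the replicate number as a block, 6 genes were higher and 12 lower, acadm losing its call (edgeR adjusted p = 0.0865). Over all genes, that run had 4967 higher and 4608 lower.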

Other observations

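The genes given here were chosen after their values were seen. Pyruvate dehydrogenase kinases hold back the oxidation of pyruvate, and in mammals PDK4 is a PPAR target. The pdk2b transcript averaged 622 CPM in pikfyve-delta8 samples and 157 CPM in wild-type samples, with a log2 fold change of 1.98 ± 0.14 (SE, n = 3 each, edgeR adjusted p = 9.6e-06), the largest rise in the list of other PPAR targets. Its paralog pdk2a averaged 279 CPM in mutants and 123 CPM in wild type (log2 fold change 1.18 ± 0.14), and pdk4 averaged 74.8 CPM in mutants and 49.9 CPM in wild type (0.58 ± 0.08). Among receptor partners, the second PPARδ paralog, pparda, was also higher, at 27.3 CPM in mutants and 17.3 CPM in wild type (log2 fold change 0.66 ± 0.11, edgeR adjusted p = 0.001).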
